A study of Mus musculus with 6 samples.

Results

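The cytosolic ribosomal protein genes were followed in LSK cells of Ercc1-deficient mice and of their litter mates. Members were the genes whose symbol begins with Rpl or Rps and continues as a ribosomal protein name does. Kinase genes of the Rps6k family and pseudogenes were left out, and only array probe sets annotated with exactly 1 symbol were taken. Each gene was represented by the probe set with the highest mean signal over the 6 arrays. The rule found 49 genes on 104 probe sets, of 18193 genes with a probe set of their own. They were 20 proteins of the large subunit, 20 of the small subunit, 2 of the large subunit's stalk, 6 paralogs of a ribosomal protein and Rps19bp1. The last is not a subunit despite its symbol: it encodes a protein that binds Rps19.

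LSK cells are bone marrow cells without markers of mature lineages that carry Sca-1 and c-Kit, and they include the blood stem cells. Ercc1 is part of an endonuclease that cuts damaged DNA in nucleotide excision and crosslink repair. The 3 deficient arrays came from mice with the genotype -/d, which is 1 knockout allele and 1 truncated allele (d). The 3 proficient arrays came from litter mates, +/+ in litters 1 and 2 and +/d in litter 3, so the control of litter 3 also carried a truncated allele. All mice were F1 animals of C57BL/6 x FVB/n, aged 22 weeks in litter 1 and 20 weeks in litters 2 and 3. Whether an array held RNA of 1 mouse or of a pool is not stated in the labels, so p-values measure only the spread between these arrays. Values are Affymetrix signal intensities on a linear scale, with a floor of 30.

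A ribosome is built from a small subunit, which reads the mRNA, and a large subunit, which joins the amino acids. Each holds ribosomal RNA and a set of proteins made in near-equal amounts, so their genes are usually expressed together. Many of these mRNAs start with a run of pyrimidines, the 5′ terminal oligopyrimidine tract, through which the mTOR pathway adjusts their translation. Blood progenitors are sensitive to the supply of ribosomes. Inherited loss of 1 copy of several of these genes causes Diamond-Blackfan anaemia, and some free ribosomal proteins bind Mdm2, the ubiquitin ligase of p53.

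The start regions of the members on which the results turn are printed here, and not all of them hold a long pyrimidine run. Each sequence below holds 35 bases before and 20 bases from the annotated start, from RefSeq on GRCm38.p6, and the capitals mark the longest run of C or T that touches the stretch from 10 bases before to 15 bases from the start. Runs farther upstream, which can be as long or longer, are left in lower case. Rpl27a, Rpl12 and Rps27l had the smallest p-values between genotypes, and Rpl41 came next among the members that were higher. Rps18 belongs to the small subunit and Rplp2 to the stalk.
Rpl27a, chr7:109519160-109519214, plus strand: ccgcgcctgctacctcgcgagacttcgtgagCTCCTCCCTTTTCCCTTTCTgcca
Rpl12, chr2:32961677-32961731, plus strand: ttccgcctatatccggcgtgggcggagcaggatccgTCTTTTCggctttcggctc
Rps27l, chr9:66946051-66946105, plus strand: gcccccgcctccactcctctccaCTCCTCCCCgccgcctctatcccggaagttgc
Rpl41, chr10:128549149-128549203, minus strand: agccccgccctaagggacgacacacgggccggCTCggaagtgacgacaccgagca
Rps18, chr17:33955646-33955700, minus strand: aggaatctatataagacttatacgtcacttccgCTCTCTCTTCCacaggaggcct
Rplp2, chr7:141447616-141447670, plus strand: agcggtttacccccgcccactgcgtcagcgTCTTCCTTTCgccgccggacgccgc
The capitalised run was 20 bases long in Rpl27a, 7 in Rpl12 and 3 in Rpl41. Whether its length goes with the difference between genotypes was not tested. For Rps27l the first of 2 listed starts is shown. In Rps27l and Rpl41 the capitalised run ends before the annotated start.

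Promoter entries of 300 bases were found for 43 of the 49 genes, with 51 starts in all. Counted in the same way, as the longest run touching that stretch around the start, the pyrimidine run had a median of 7 bases in the members and 5 in all 32851 promoters. A run of 8 or more stood in 21 of the 51 member starts (41.2%) and in 15.4% of all promoters. The motif CTTCCG, searched on both strands of the whole 300 bases, stood in 60.8% of the member promoters and 16.9% of all. CTTTC stood in 82.4% against 57.3%. These matches are descriptions of the letters and do not show that a factor binds there.

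Between the arrays, litter was the larger difference. Summed over the members, the signal was 314216, 715229 and 465273 on the deficient arrays of litters 1, 2 and 3. On the proficient arrays it was 223797, 610926 and 508645. As a share of the summed signal of all genes this was 6.14%, 11.8% and 8.69% in deficient cells and 5.03%, 11.1% and 9.61% in proficient cells. Both arrays of litter 1 were thus the low ones, both of litter 2 the high ones, and the genotypes overlapped. In bulk samples, fewer cells of a type and less RNA per cell cannot be told apart. Of the 44 members above the floor on all arrays, the lowest array was the proficient one of litter 1 in 39 and the deficient one of litter 1 in 5. The highest was the deficient array of litter 2 in 37.

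**Figure D1:**
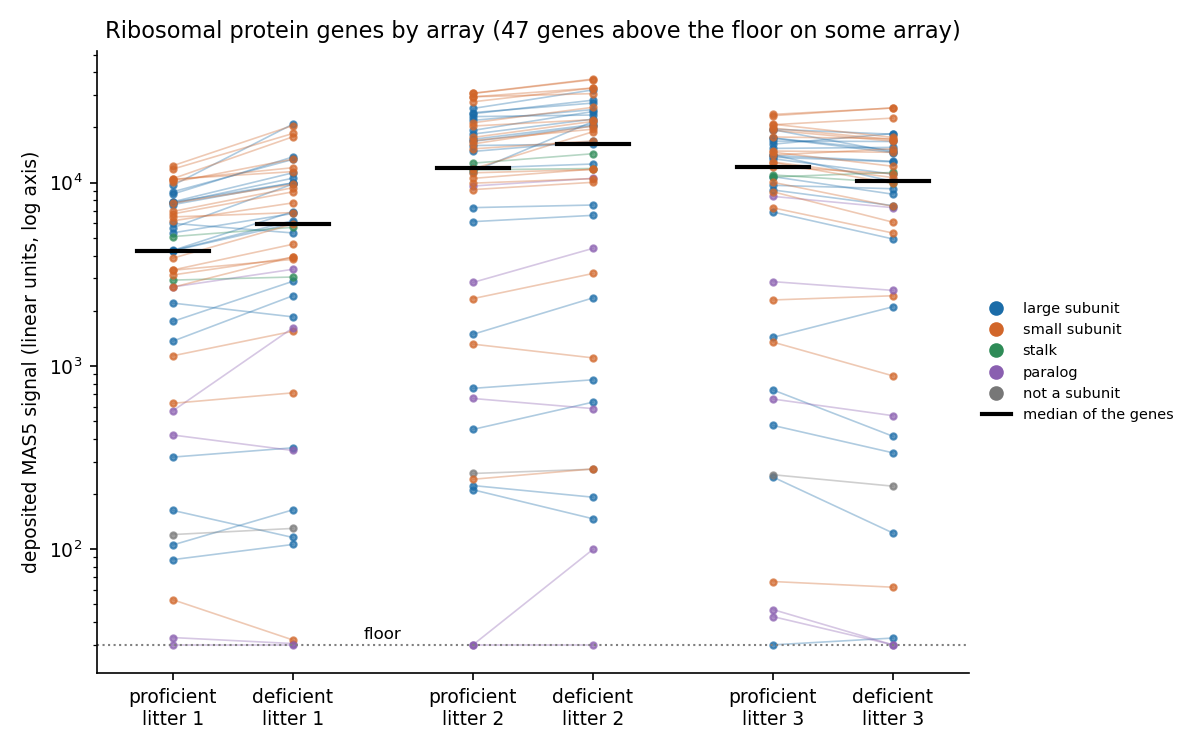
Signal of each ribosomal protein gene (points; vertical log axis, signal intensity) on the 6 arrays, ordered by litter and genotype, for the 47 genes above the floor of 30 on at least 1 array. Colours give the role, lines join litter mates and black bars are medians. Most genes are low together on both arrays of litter 1 and peak on the deficient array of litter 2.

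No ribosomal protein gene passed the test between genotypes. Of the 47 members tested (limma with litter as a block, adjusted p under 0.05 over 22519 probe sets), 0 were called higher and 0 lower, where 0.786% of all probe sets were called, 0.293% higher and 0.493% lower. The adjusted p of the members ran from 0.227 to 0.998. An unadjusted p under 0.05 was found for 3 of them, against 11.4% of all probe sets, and without the litter term for 0, against 2.59%. Without the litter term limma called 0 probe sets in all. The standard errors of the members had a median of 0.28 on the log2 scale, so small shifts were not detectable with 3 arrays a group. The remaining 2 members, Rpl3l, a paralog found mainly in muscle, and Rps16 of the small subunit, were listed at the floor on all 6 arrays by their only usable probe sets and were not tested.

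The members moved with each other within a litter, but not in the same direction in every litter. Differences are deficient minus proficient, on the scale log2(signal + 30). In litter 1, 40 of 47 members were higher in the deficient array, with a median of 0.39. In litter 2, 42 were higher, with a median of 0.17. In litter 3, 37 were lower, with a median of -0.20. Litter 3 was also the litter with a +/d control, which cannot be told apart from litter here. Over all 10879 genes tested the medians were 0.00, -0.05 and 0.00. The pattern of higher in litters 1 and 2 and lower in litter 3 was found for 29 of the 47 members and for 9.41% of all tested probe sets. Members higher in all 3 litters numbered 9, against 11.3% of probe sets, and members lower in all 3 numbered 2, against 17.0%. Averaged over litters, 36 members were higher and 11 lower, with a median of 0.14, and 46.8% of all genes were higher, with a median of -0.02.

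This direction depended on the scaling of the arrays. After quantile normalization 18 members were higher and 29 lower, with a median of -0.02. Of all genes 50.6% were then higher, with a median of 0.003. The members' medians in litters 1, 2 and 3 were then -0.01, -0.02 and -0.18. Higher in litters 1 and 2 and lower in litter 3 were then only 6 members (12.8%), against 9.92% of all genes tested. In all 3 litters 3 members were higher and 12 lower. After centring each array on its median 39 members were higher and 8 lower, with a median of 0.23. That centring also moved the genes as a whole, with 59.7% of all genes higher and a median of 0.07. Without litter 1 the median was 0.02, without litter 2 it was 0.07 and without litter 3 it was 0.30.

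**Figure D2:**
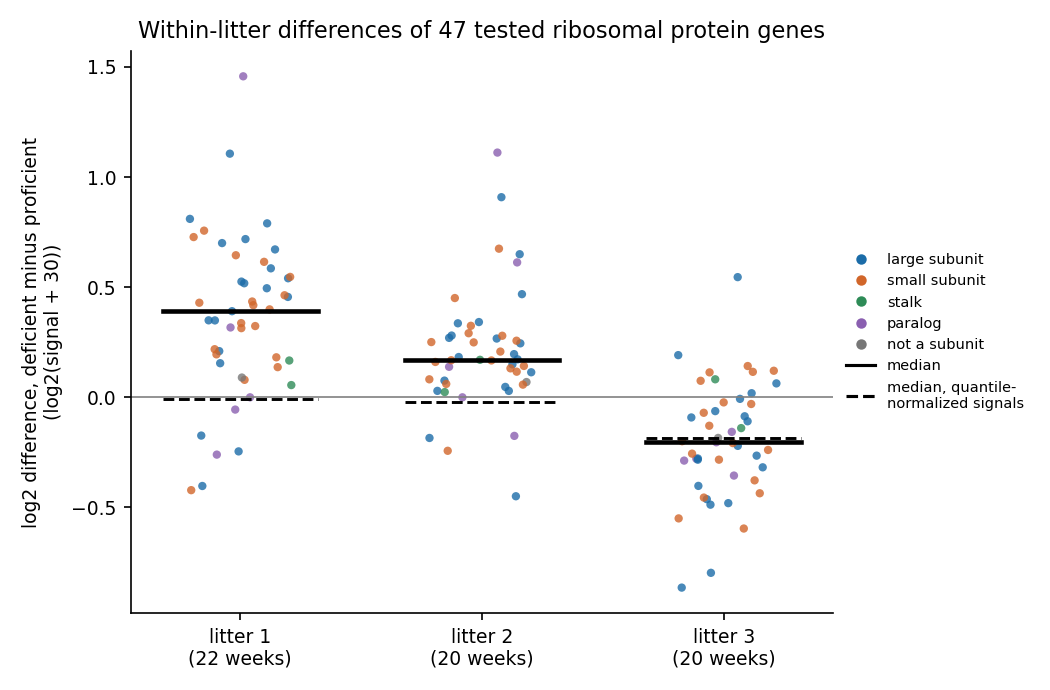
Difference between deficient and proficient cells in each litter, for each of the 47 tested members (points, coloured by role; vertical axis, log2(signal + 30) difference). Solid bars are medians and dashed bars medians after quantile normalization. The members lie mostly above 0 in litters 1 and 2, with medians of 0.39 and 0.17, and mostly below 0 in litter 3, with a median of -0.20.

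In the large subunit 16 of 20 members were higher, with a median of 0.18 and litter medians of 0.51, 0.19 and -0.24. The small subunit gave nearly the same picture, with 15 of 19 higher, a median of 0.13 and litter medians of 0.40, 0.17 and -0.20. No member of either subunit was called.

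Rpl27a, a large subunit protein, had the largest difference of all members. Its signals were 2414, 2349 and 2103 in deficient cells of litters 1, 2 and 3, and 1364, 1487 and 1431 in proficient cells. The groups did not overlap, and the deficient array was higher in 3 of 3 litters. The means were 2288 ± 164 and 1427 ± 61.5 (SD, n = 3 each), giving a log2 difference of 0.67 ± 0.23 (SE; 95% interval 0.20 to 1.14; limma, adjusted p = 0.227). It was the only member with all deficient arrays above all proficient arrays, as 2.30% of all probe sets were. It was also a member whose level did not follow the litters, as its litter 1 arrays differed from the others by 0.01.

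Rpl12, a protein at the base of the stalk, stood on the other side. Its signals were 116, 146 and 122 in deficient cells and 163, 211 and 247 in proficient cells. All deficient arrays lay below all proficient arrays, which held for no other member and for 4.89% of all probe sets. They differed by -0.57 ± 0.23 on the log2 scale (SE; 95% interval -1.06 to -0.09; limma, adjusted p = 0.341). This is a weak probe set, at 128 ± 16.1 against 207 ± 42.4 (SD, n = 3 each).

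Other large subunit members had wider spreads. Rpl41, the smallest ribosomal protein, gave 20855, 27185 and 18536 in deficient cells and 9672, 24118 and 16228 in proficient cells. It was higher in all 3 litters, most in litter 1, and the groups overlapped (log2 difference 0.49, or 0.20 after quantile normalization; limma, adjusted p = 0.586). Without probe sets that may cross-hybridise, its remaining brightest probe set gave -0.28. Rpl13a, also known from a complex that silences mRNAs in inflammation, gave 10578, 21549 and 15037 against 7705, 11466 and 17524. It was higher in litters 1 and 2 and lower in litter 3, with a mean of 0.38, or 0.12 after quantile normalization. On the lower side, Rpl8 gave 1852, 6631 and 4925 against 2201, 6126 and 6916, lower in litters 1 and 3 only. Its mean difference was -0.21, or -0.38 after quantile normalization. Rpl4 and Rpl14 had mean differences of -0.14 and -0.16, with overlapping groups, and quantile normalization put Rpl4 at -0.42. Rpl14 was higher by 0.15 in both litters 1 and 2 and lower in litter 3, at -0.80.

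In the small subunit, Rps18, Rps28 and Rps29 were higher in all 3 litters. Rps29, a zinc-binding protein near the mRNA channel, gave 20504, 36772 and 25548 in deficient cells and 12372, 30768 and 23578 in proficient cells. Rps18 gave 17791, 36498 and 25612 against 10518, 30670 and 23208. In both genes the largest gap was in litter 1, and the spread over litters exceeded the gap between genotypes. Their log2 differences were 0.37 and 0.38, and that of Rps28 was 0.31. After quantile normalization Rps29 was at 0.0086, Rps18 at 0.023 and Rps28 at 0.0014. Rps25, which viral mRNAs with internal entry sites need, gave 1545, 3193 and 2413 against 1135, 2328 and 2290, again higher in 3 of 3 litters (log2 difference 0.32, standard error 0.23, or 0.20 after quantile normalization; limma, adjusted p = 0.641).

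Rps6, the protein phosphorylated downstream of mTOR, was among the small subunit members with lower means. It gave 712, 1106 and 882 in deficient cells and 625, 1314 and 1348 in proficient cells. The deficient array was higher in litter 1 and lower in litters 2 and 3, with a mean difference of -0.22. Rps27 was near the floor, at 31.9, 274 and 61.9 against 52.9, 240 and 66.5, and its mean difference was -0.11.

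The stalk, which recruits the elongation factors, differed little. Rplp0 gave 3055, 11942 and 11370 in deficient cells and 2939, 11746 and 10742 in proficient cells. Its 3 litter differences were 0.06, 0.02 and 0.08, the mean was 0.05, and the 95% interval ran from -0.49 to 0.59. Rplp2 gave 5705, 14381 and 10000 against 5078, 12777 and 11020, with a mean of 0.07. Both means turned negative after quantile normalization, at -0.13 and -0.19.

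**Figure D3:**
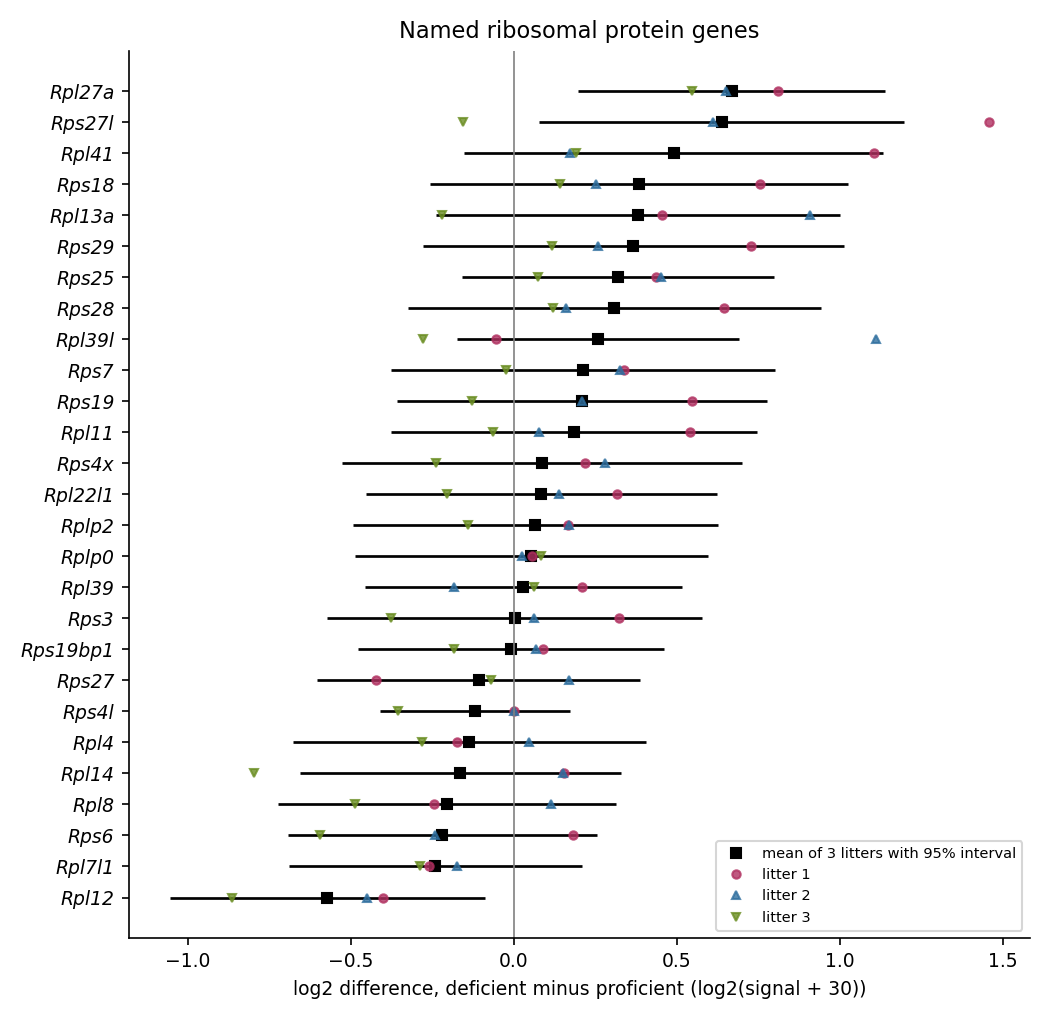
Mean log2 difference between deficient and proficient cells (squares, with the 95% interval of the fit with litter as a block) of the tested named members, beside each litter's own difference (coloured symbols). Rpl27a at 0.67 and Rps27l at 0.64 lie farthest to the right and Rpl12 at -0.57 farthest to the left, and none passed the adjusted test.

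Among the paralogs, Rps27l had the largest difference. It is a close relative of Rps27, a known p53 target gene and a binding partner of Mdm2. Its signals were 1612, 4378 and 2582 in deficient cells and 568, 2854 and 2882 in proficient cells. The deficient array was the higher one in litters 1 and 2, by 1.46 and 0.61, and the lower one in litter 3, by -0.16, so the groups overlapped. The means were 2857 ± 1404 and 2101 ± 1328 (SD, n = 3 each), giving a log2 difference of 0.64 ± 0.27 (SE; 95% interval 0.08 to 1.20; limma, adjusted p = 0.359). All 3 of its probe sets gave similar differences, from 0.59 to 0.66. Without litter 1 its difference was 0.23 and without litter 3 it was 1.03.

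The other paralogs were smaller in difference or weak in signal. Rpl7l1, a relative of Rpl7, was lower in all 3 litters by its brightest probe set, at 345, 584 and 535 against 419, 664 and 659. Its mean was -0.24 (limma, adjusted p = 0.718), with overlapping groups. The weaker Rpl7l1 probe sets disagreed, at 0.26 and higher in all 3 litters, and at -0.48 and lower in all 3. Rpl22l1, the relative of Rpl22, gave 3366, 10555 and 7302 against 2696, 9586 and 8415, with a mean of 0.08. Rpl39l and Rps4l lay at or near the floor on nearly all arrays. Rps4l was above it on 1 proficient array only, and Rpl39l reached 99.6 on the deficient array of litter 2.

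The members known to bind Mdm2 are Rpl11, Rps3, Rps7 and Rps27l here. In the deposited signals all were higher in litters 1 and 2 and lower in litter 3, as 29 of the 47 members were. Their mean differences were 0.18, 0.00, 0.21 and 0.64. After quantile normalization Rpl11, Rps3 and Rps7 were at -0.01, -0.26 and -0.04, and Rps27l was at 0.55. Of the 11 genes linked to Diamond-Blackfan anaemia, 10 were higher on average, with a median of 0.21, and 0 were called. Among all 47 members 36 were higher, with a median of 0.14. The litter medians of the 11 genes were 0.55, 0.17 and -0.13. Rps19, the gene most often mutated in that disease, gave 3936, 19583 and 11184 in deficient cells and 2685, 16953 and 12234 in proficient cells. Its litters differed several-fold and its genotypes by 0.21, or 0.063 after quantile normalization. Its partner Rps19bp1 had a mean difference of -0.01. The X-linked members Rps4x and Rpl39 had mean differences of 0.09 and 0.03.

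A gene's probe sets did not always give the same answer. Affymetrix marks with _x_at probe sets that may cross-hybridise with unrelated sequences and with _a_at those that match several transcripts of 1 gene. Ribosomal protein genes have many processed pseudogenes, so some signal may be shared between copies. Of the 47 chosen probe sets, 14 of 15 with _x_at were higher, with a median of 0.26. Of the 17 with _a_at 14 were higher, with a median of 0.08, and of the 14 with plain _at 7 were higher, with a median of 0.01. Of 21 members with at least 2 tested probe sets, 9 had differences of both signs. A further 110 probe sets share a ribosomal protein symbol with another symbol. In the deposited signals they gave the same litter pattern, with 80 of 103 tested higher and medians of 0.45, 0.15 and -0.18.

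The largest departures came from weaker probe sets of Rpl22 and Rps24, which were chosen after their values were seen. A weak probe set of Rpl22, a large subunit protein with a role in lymphocyte development, gave 155, 66.9 and 115 in deficient cells and 462, 134 and 217 in proficient cells. It was lower in all 3 litters, at -0.98 (limma, adjusted p = 0.0572), while the brightest Rpl22 probe set was at 0.29. A weak probe set of Rps24, a gene with alternative last exons, gave 171, 103 and 72.5 against 300, 171 and 213, at -0.85 (limma, adjusted p = 0.114), while its brightest one was at 0.27. None of the 48 tested probe sets that were not chosen was called.

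The difference between litters was far larger than that between genotypes. This contrast was added after the data were seen. Litter 1 was singled out because its arrays were the low ones for these same genes, so the counts that follow describe the arrays and are no independent test. The error of the fit comes from how far the difference between litter mates varied from litter to litter. Its p-values carry no spread in level between litters, with 1 litter set against 2. Both arrays of litter 1 were set against the 4 arrays of litters 2 and 3 in the same fit, and 35 of the 47 members were lower with an adjusted p under 0.05 (limma), where 13.2% of all probe sets were called lower and 14.0% higher. No member was higher with such a p. The median difference was -0.97, against -0.07 over all genes, which is a 1.96-fold lower level in litter 1. Both litter 1 arrays lay below the other 4 for 41 of 47 members and for 18.1% of all probe sets. Litter took a median of 91.1% of a member's sum of squares and genotype 2.72%. Over all genes litter took 64.6% and genotype 9.0%. With 3 litters against 2 genotypes, litter would hold the larger share on average in pure noise too. Litter, age and the handling of each litter cannot be told apart.

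Rpl27, a large subunit protein linked to Diamond-Blackfan anaemia, differed most; the examples of this contrast were chosen after their values were seen. It gave 2895 and 1748 in litter 1, against 16266, 15939, 8648 and 10786 in the others. It was 5.48-fold lower in litter 1, at -2.45 on the log2 scale. Rps19 was 4.46-fold lower, Rplp0 3.79-fold lower, and Rps14, lost in the 5q- form of myelodysplastic syndrome, stood at -1.81. Rpl4 was lower by less, at -0.47, and Rpl27a and Rpl39 were not lower, at 0.01 and 0.07. After quantile normalization 19 members were called lower instead of 35. Without litter 2 the count was 0 and without litter 3 it was 36.

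**Figure D4:**
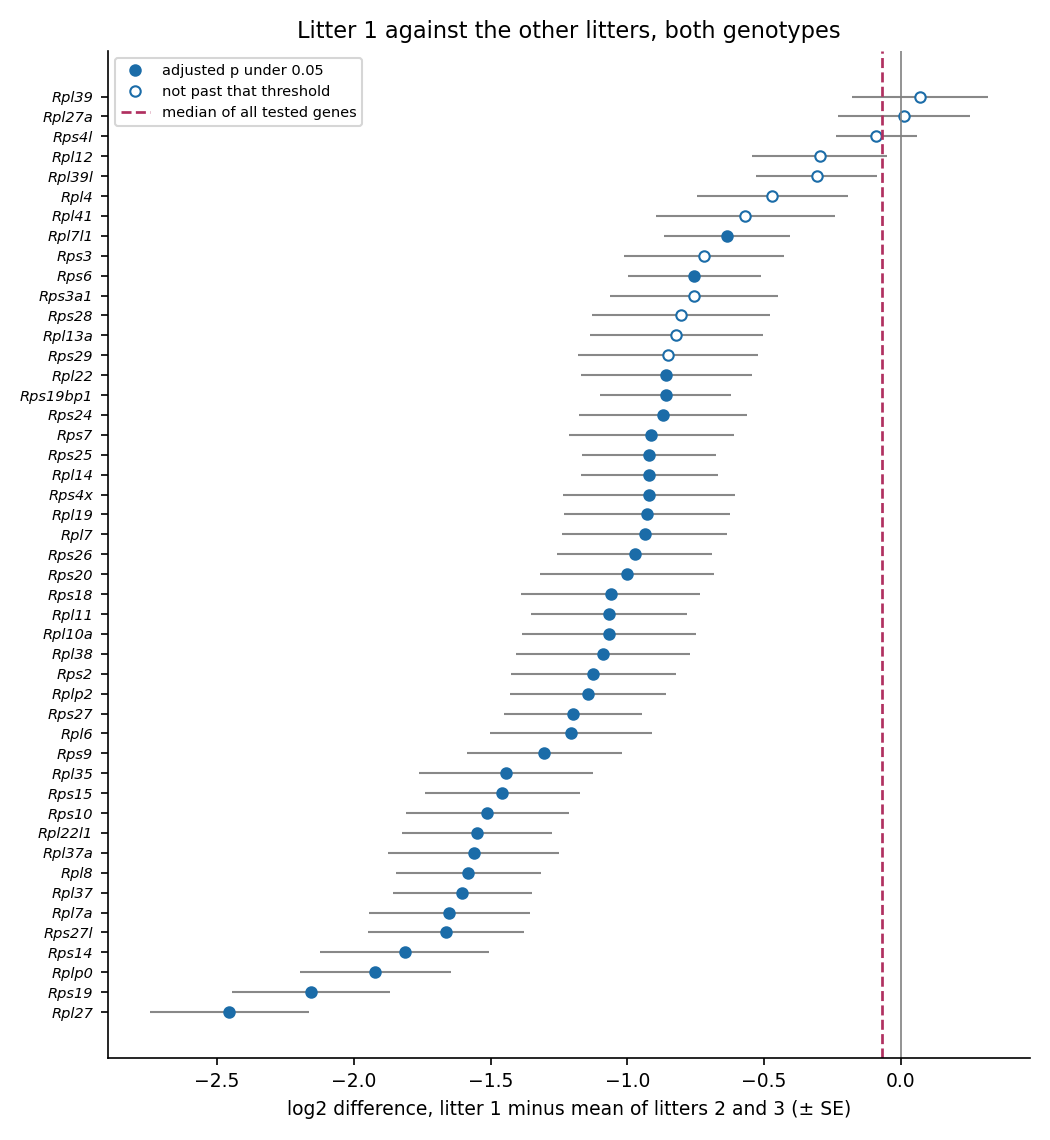
Log2 difference between litter 1 and the mean of litters 2 and 3, both genotypes together, for each tested member (points, with SE; filled where called). The dashed line is the median of all tested genes, -0.07. All but Rpl27a and Rpl39 lie below 0, and Rpl27 at -2.45 is the lowest.

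Other measures moved with the litters and with the genotypes, and their part in these results was not tested. The 18S ribosomal RNA control signal was 153 and 148 in litter 1 and between 727 and 3556 on the other arrays. The ratio of the 3′ to the 5′ probe set of Gapdh, which rises as RNA is shortened, was 26.2 and 12.5 in litter 1 and between 4.92 and 7.92 on the others. For Actb it was 31.4 and 16.6 in litter 1 and between 9.83 and 21.6 on the others. In litter 1 the spike-ins were 2.18-fold higher on the deficient than on the proficient array, against 1.08 and 1.13 in litters 2 and 3. Between 52.3% and 58.6% of signals lay at the floor. Ercc1 gave 79.9, 34.5 and 44.9 in deficient and 128, 244 and 176 in proficient cells (log2 difference -1.36; limma, adjusted p = 0.0159).

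Cell type markers moved too. Of 18 measured genes listed as markers of granulocytes and macrophages, Elane, Mpo, Prtn3 and Ctsg among them, 16 were higher in deficient cells. Of these 7 were called, where 0.293% of all probe sets were called higher. The summed signal of the 18 was 19012 to 118506 in deficient and 4467 to 37335 in proficient cells. It was 4.26-, 2.85- and 3.17-fold higher in deficient cells of litters 1, 2 and 3. Itgam and Mmp8 were at the floor throughout. Camp, Chil3, S100a9 and Ngp, proteins of neutrophils and other myeloid cells, had log2 differences between 2.72 and 2.78. Of 8 stem and progenitor markers 2 were higher. The cytokine receptor Flt3 and the stem cell marker Procr were called lower, at -1.05 and -1.07, as 0.493% of all probe sets were. The sums of the 8 markers were 2997 to 8742 and 4542 to 8493, with deficient to proficient ratios of 1.03, 0.65 and 0.85 in litters 1, 2 and 3. Kit, which defines the sort, was above the floor on all arrays, and Ly6a, which encodes Sca-1, was not used here. Of 11 lymphocyte markers 6 were higher, with sums of 1044 to 1827 and 635 to 1240, and Cd3g, Cd4, Cd79a and Ncr1 at the floor. The ratios of these sums in litters 1, 2 and 3 were 1.64, 1.66 and 1.35. Of 10 erythroid markers 1 was higher, with sums of 2726 to 4689 and 2771 to 6036, and Alas2, Epb42 and Hba-a1 at the floor. Their sums had ratios of 0.98, 0.78 and 0.72 in litters 1, 2 and 3.

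The genes that make and regulate ribosomes were read beside the members. Fau and Rpsa are ribosomal proteins whose symbols fall outside the rule. Fau, made as a fusion with a ubiquitin-like protein, gave 2762, 10766 and 6340 in deficient and 1406, 8110 and 7112 in proficient cells, higher in litters 1 and 2 and lower in litter 3, with a mean of 0.40. Rpsa was at -0.01. Of 17 translation factors with terminal oligopyrimidine mRNAs 9 were higher, with a median of 0.02, and 0 were called. Eef2, the factor that moves the ribosome along the mRNA, had the smallest p, at -0.43, followed by Eif3k at -0.31.

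Of 28 tested ribosome biogenesis factors 16 were higher, with a median of 0.10, and 0 were called. Dkc1, the pseudouridine synthase mutated in dyskeratosis congenita, was at 0.49 and Wdr12, of the complex that matures the large subunit, at 0.38. Of 14 genes of RNA polymerase I and its factors 6 were higher, with a median of -0.07, and 0 were called. Polr1a and Polr1b, its largest subunits, were at -0.41 and -0.40.

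Of 12 tested genes between mTOR, Myc and the ribosome 7 were higher, with a median of 0.02, and 0 were called. The lowest were the transcription factors Myc and Mycn, which drive ribosomal protein genes and ribosome biogenesis. Myc gave 509, 451 and 531 in deficient cells and 722, 864 and 829 in proficient cells. All its deficient arrays lay below all its proficient ones, as held for 4.89% of all probe sets. Its log2 difference was -0.66 (limma, adjusted p = 0.209). Mycn gave 1394, 415 and 485 against 2388, 573 and 806. It was lower in all 3 litters, at -0.63 (limma, adjusted p = 0.240), with overlapping groups.

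In the contrast of litter 1 with litters 2 and 3, 7 of the 17 translation factors, 9 of the 28 biogenesis factors, 4 of the 14 RNA polymerase I genes and 2 of the 12 genes around mTOR and Myc were lower with an adjusted p under 0.05 (limma), against 13.2% of all probe sets. Higher with such a p were 0, 2, 1 and 2 of them, against 14.0%.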

How the data were processed

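Gene expression was measured in 6 samples of sorted cells on Affymetrix Mouse Genome 430 2.0 arrays, after 2 rounds of linear amplification of the RNA. The authors deposited signal intensity values, linear and not logged, which the submitters' processing notes credit to MAS5. No source used here states the scaling target or what set the floor of 30. Amplification favours 3′ ends, and the floor hides differences among weak genes.

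Gene symbols are those of the platform annotation, which can be old. Signals were transformed as log2(signal + 30), which understates changes of weak genes. Of 45037 probe sets that are not controls, 22519 passed a filter (mean log2 signal not below the median) and were fitted with limma 3.58.1 in R 4.3.3 (group and litter, eBayes with a variance trend) and Benjamini-Hochberg adjustment, with calls at 0.05. The fit was tested on simulated data.

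Litter is the block because the labels name arrays of equal number as litter mates. Over all tested probe sets, litter mates departed from their group means together, with r = 0.77, 0.67 and 0.46. With 3 arrays a group an exact two-sided permutation test cannot go below 0.1, or 0.25 over 3 pairs, so none was used.

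Named were the 8 members of smallest p in each direction, the 3 brightest and 3 dimmest, all of the short lists, and the called or 2 leading genes of each longer list. The members and lists were chosen with earlier results of these data known. Alternatives were quantile normalization, median centring, pseudocounts of 1 and 100, no or a stricter filter, no variance trend, no litter term, each litter left out, averages over each gene's probe sets, and no cross-hybridising probe sets. Adding probe sets with several symbols, and the litter 1 contrast, were chosen after seeing the data.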

Additional observations from a re-analysis of the deposited data

Results flagged for a closer look

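Rps6, the ribosomal protein phosphorylated downstream of mTOR, differed in direction between litters. Its log2 difference between deficient and proficient cells was 0.18 in litter 1, at 22 weeks, and -0.24 and -0.60 in litters 2 and 3, at 20 weeks. The difference between the litters was not tested, and with 1 litter at 22 weeks age and litter cannot be told apart. Changes of direction were common: of the 47 members tested, 40 were higher in litter 1, 42 higher in litter 2 and 37 lower in litter 3.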

How the results depend on the processing

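Between genotypes 0 members were called in either direction under every alternative that was run. Without the litter term (no replicate block) 0 probe sets were called in all, against 177 with it; the count was 124 after quantile normalization, 312 after median centring, 213 and 147 with pseudocounts of 1 and 100, 212 with the stricter filter, 97 without a variance trend, 10 for means over probe sets, 0 without the filter, and 0, 0 and 5 without litters 1, 2 and 3. Of the comparisons of single named members with an alternative, 355 kept their sign and their side of the threshold, 19 changed sign and 1, Rps4l without litter 3, was exactly 0. Quantile normalization put Rpl11 at -0.010, Rpl22l1 at -0.085, Rplp0 at -0.13, Rplp2 at -0.19, Rps3 at -0.26, Rps4x at -0.17, Rps7 at -0.035 and Rps19bp1 at 0.046. Median centring put Rps19bp1 at 0.082. Without cross-hybridising probe sets Rpl41 was at -0.28. Leaving out 1 litter gave ranges of -0.25 to 0.049 for Rps27, -0.033 to 0.23 for Rpl22l1, -0.061 to 0.14 for Rpl39, -0.16 to 0.19 for Rps3, -0.17 to 0.53 for Rpl39l, -0.010 to 0.25 for Rps4x, -0.32 to 0.15 for Rpl14 and -0.058 to 0.080 for Rps19bp1. The count of members lower in litter 1 was 35; it was 19 after quantile normalization, 0 without the filter on mean signal, 101 of 150 with probe sets of several symbols added, and 0 to 36 when litter 2 or 3 was left out. With litter 1 left out this contrast cannot be had. The causes of these shifts were not tested, except that the larger count with several symbols follows from more probe sets tested. Weak members near the floor, Rpl39l and Rps4l among them, have little signal over background to show a difference.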
